A study of Mus musculus with 15 samples.

Results

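Promoter DNA methylation was followed at the genes for axon guidance ligands and receptors, which are the ephrins with their Eph receptors, the semaphorins with plexins and neuropilins, the Slits with Robo receptors, and the netrins with Unc5 receptors. The members are the autosomal protein-coding genes of the GENCODE vM1 annotation whose symbols start with Epha, Ephb, Efna, Efnb, Sema, Plxn, Slit, Robo, Ntn, Nrp or Unc5 and go on with a digit or with a letter and a digit, with Unc5a to Unc5d kept. The rule, which reads symbols alone, found 67 genes of 21281. A promoter was measured by its CpGs within 1 kb of any annotated start site on build mm9, where every one of the 15 libraries had to have 10 reads or more at a CpG. Of the 67 genes, 59 had at least 1 such CpG and 49 had at least 3 and entered the test, which ran on 10532 promoters. The 8 genes without a measured CpG were Efna2, Epha1, Epha3, Ntng1, Sema3b, Sema3d, Sema3f and Sema3g, and the 10 with 1 or 2 CpGs were Efnb3, Epha10, Ephb4, Nrp1, Ntn5, Sema3c, Sema3e, Sema4a, Sema4f and Sema6c.

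The libraries are reduced representation bisulfite sequencing, in which bisulfite converts unmethylated cytosines in CpG-rich restriction fragments, so that the share of unconverted reads gives the methylation level. Mouse bone marrow progenitors of 4 genotypes on the C57BL/6 strain were sorted as lineage-negative, cKit-positive, Sca1-negative cells. Granulocyte-macrophage progenitors (GMP) carried CD34 and Cd16/32, and megakaryocyte-erythroid progenitors (MEP) carried neither. Wild type cells, as the labels name them, were Mx1-cre+;Dnmt3af/f, Dnmt3a knockout cells were Mx1-cre+;Dnmt3a-/-, and Idh2 mutant cells were Mx1-cre-;Dnmt3af/f with Idh2 R140Q, so that wild type and Idh2 mutant cells both carried the floxed Dnmt3a alleles and differed in the Cre as well. Each of these had 2 GMP and 2 MEP libraries. Double mutant cells were Mx1-cre+;Dnmt3a-/- with Idh2 R140Q, in 3 libraries of malignant cells sorted with the MEP surface markers, and they were compared with MEP. The Mx1 promoter that drives this Cre is switched on by interferon and is active in blood and in other tissues. Malignant state and double mutant genotype cannot be told apart in these groups, and the labels speak of biological replicates without saying that they were separate animals, so p-values may measure only the spread between samples.

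Guidance molecules steer growing axons by attraction or repulsion: a ligand that is secreted or held on a neighbouring cell binds a receptor on the growth cone, which remodels its actin skeleton. The same families act outside the nervous system, in vessels, in epithelia and in blood, where Sema4d is found on lymphocytes and Robo4 on endothelium and blood stem cells. Dnmt3a places new DNA methylation, and Idh2 R140Q makes 2-hydroxyglutarate, which inhibits the TET enzymes that start its removal.

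Reads over cytosines came to 19306705 to 35204906 per library, and the median depth over the CpGs kept was 30 to 51 reads. Wild type libraries stood apart in sex chromosome content, with 54.0 to 57.5 Y reads per 1000000 autosomal reads against 198.8 to 386.3 in the other libraries, so for every comparison with wild type sex chromosome content and genotype cannot be told apart. The comparisons of the double mutant with knockout and Idh2 mutant MEP hold no wild type library, but their libraries differed as well. Y reads per 1000000 autosomal reads were 357.1 to 386.3 in the double mutant and 202.5 to 291.9 in knockout and Idh2 mutant MEP. Reads over cytosines were 28001420 to 31657332 and 19536034 to 26086791. What these differences add was not tested. Of the 9 MEP and 9 GMP marker genes listed, only Itga2b, Pf4 and Tal1 (MEP) and Prtn3 (GMP) had a tested promoter, and none of the 6 lymphoid or 4 vessel and stroma markers had. Promoter levels of Pf4 and Tal1 were 3.56% and 3.83% in wild type MEP, 0.461% and 4.06% in the double mutant. Prtn3, a granule protease, was lower in all 3 double mutant libraries (mean 0.864%) than in every MEP library, where the means were 4.55% in Idh2 mutant, 2.31% in wild type and 2.07% in knockout cells, and none of these differences reached the size rule used below. Itga2b, the integrin of platelets, rose from 17.6% to 32.2% (adjusted p = 0.00141, quasi-binomial model). A bulk level cannot tell a larger share of methylated cells from more methylated copies per cell, and what the make-up of the sorted cells adds to the differences below was not tested.

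The stretches below, each of 150 bases of mm9 read 5′ to 3′ along the gene's strand, show what was measured. Each is, within its gene, the window with the largest absolute summed difference between double mutant and wild type MEP. Windows had no untranslated sequence and at least 4 measured CpGs. The genes were among those with the largest rises, with Epha7 and Sema7a added to show other outcomes. Windows of Unc5d and Sema5a are not printed, and Epha6, Robo1, Ephb3, Robo2 and Sema3a had none. The stretches were thus picked by the outcome and are a description. Measured CpGs are in capitals and all other bases in lower case.
Sema6d, chr2:123915998-123916147: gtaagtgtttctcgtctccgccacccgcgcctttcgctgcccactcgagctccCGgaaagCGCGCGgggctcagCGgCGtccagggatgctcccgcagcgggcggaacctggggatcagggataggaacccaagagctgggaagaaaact
Ephb1, chr9:102256198-102256347: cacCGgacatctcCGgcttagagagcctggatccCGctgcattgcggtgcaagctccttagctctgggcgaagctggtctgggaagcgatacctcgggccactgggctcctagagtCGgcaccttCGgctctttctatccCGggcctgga
Efna5, chr17:63229780-63229929: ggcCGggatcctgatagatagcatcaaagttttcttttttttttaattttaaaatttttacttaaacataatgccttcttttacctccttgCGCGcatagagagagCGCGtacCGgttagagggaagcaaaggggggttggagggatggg
Sema5b, chr16:35660372-35660521: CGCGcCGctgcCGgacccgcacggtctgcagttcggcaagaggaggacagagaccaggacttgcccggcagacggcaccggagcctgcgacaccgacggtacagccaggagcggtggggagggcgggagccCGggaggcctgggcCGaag
Unc5c, chr3:141128298-141128447: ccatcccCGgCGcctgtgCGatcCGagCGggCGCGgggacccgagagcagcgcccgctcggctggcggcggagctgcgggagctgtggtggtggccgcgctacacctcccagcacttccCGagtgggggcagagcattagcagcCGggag
Epha7, chr4:28740884-28741033: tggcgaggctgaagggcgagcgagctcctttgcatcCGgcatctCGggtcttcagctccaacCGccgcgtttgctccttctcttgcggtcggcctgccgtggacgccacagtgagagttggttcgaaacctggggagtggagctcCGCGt
Sema7a, chr9:57787458-57787607: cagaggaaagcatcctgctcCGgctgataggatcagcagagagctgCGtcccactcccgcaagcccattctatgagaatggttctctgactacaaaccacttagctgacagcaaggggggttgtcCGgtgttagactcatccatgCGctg

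Sema6d is a transmembrane semaphorin, and the stretch printed for it lies in the gene on the plus strand, with its middle 367 bp after the nearest start site. The 6 CpGs in capitals had a mean level of 9.91% in wild type MEP and of 61.1% in the double mutant, where the 3 libraries spanned 56.7% to 68.4%. In the Ephb1 stretch (minus strand, 751 bp into the gene, no coding base) the 6 CpGs went from 1.63% to 41.6%. The Efna5 stretch (minus strand, 639 bp into the gene, no coding base) had 0.707% in wild type MEP and 30.1% in the double mutant over 6 CpGs. The Sema5b stretch lies 925 bp after a start site inside the gene and holds 98 coding bases, and its 6 CpGs had 7.30% and 49.6%. Upstream of Unc5c, 156 bp before its start site, 9 CpGs had 0% and 10.5%. The last 2 stretches show the other outcomes. In Epha7, 482 bp into the gene, 5 CpGs were near 0 in both groups (0.574% and 0.117%). Upstream of Sema7a, with its middle at -388 bp from the start site, 4 CpGs had 42.2% in wild type MEP and 6.31% in the double mutant.

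In wild type progenitors most of these promoters were little methylated. Averaged over the 4 wild type libraries, 29 of the 49 tested promoters lay below 5%, 12 lay between 5% and 20% and 8 between 20% and 80%. The 8 were Ephb2, Ephb3, Sema4g, Sema6b, Plxnb2, Robo3, Robo4 and Unc5a. Of all 10532 promoters 7795 lay below 5%, 1360 between 5% and 20%, 1025 between 20% and 80% and 352 above 80%, so members lay below 5% less often. Plxnb2, a receptor for class 4 semaphorins, had 56.7% ± 1.32 in wild type GMP and 51.2% ± 5.88 in wild type MEP (SD, n = 2 each). Robo4, the vascular member of its family, had 52.3% ± 11.9 and 50.9% ± 0.213, over only 3 CpGs, and Robo3, a receptor of commissural neurons, 48.1% ± 1.20 and 46.3% ± 7.27 (SD, n = 2 each). Epha2, Ntn3, Sema4b, Sema4d and Sema7a had means between 10% and 20%. No tested member promoter lay above 80%, while 4 of the member genes with 1 or 2 CpGs did: Epha10, Ntn5, Sema4a and Sema6c.

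**Figure D1:**
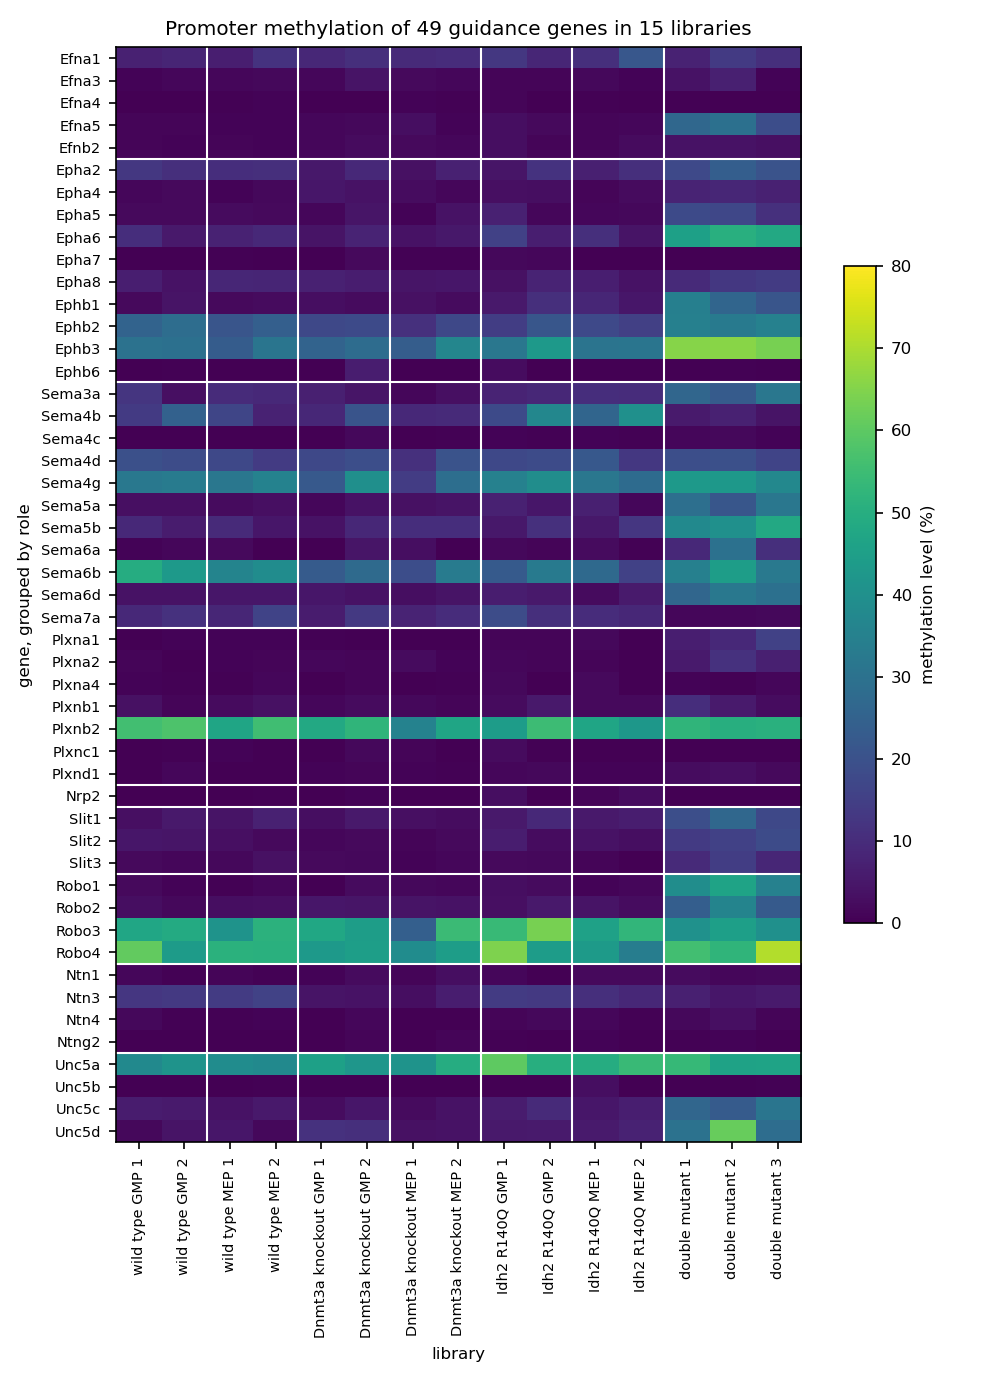
Promoter methylation level (colour, %) of the 49 tested guidance genes (rows, grouped by role with white lines between roles) in 15 libraries (columns, by group). The 3 double mutant libraries at the right are brighter than all others in Epha6, Robo1, Unc5c and Sema6d, while Plxnb2 lies between 35.4% and 57.6% in all 15.

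None of the 49 promoters was called between wild type MEP and GMP, and the background was 0.0% (0 of 10532). No member had an unadjusted p under 0.05, against 256 promoters of all, and limma and edgeR called 0 as well (backgrounds 0.0%). In 9 members both MEP libraries lay below both GMP libraries (15.4% of all promoters) and in 6 above them (10.1%). The largest of these differences was in Sema6b, at 49.5% and 43.3% in GMP and 36% and 38.8% in MEP. Plxnb2 (-5.42 points), Ephb2 (-4.21), Sema4d (-3.47) and Slit2 (-2.12) followed, and the other 4 lower members differed by less than 2 points. Of the 6 higher members Epha8 (3.24) differed most, and Ntn3, Sema6d, Robo2, Efna4 and Efna3 by less than 2 points. None of the 15 passed the test.

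In the double mutant, 19 of the 49 promoters (38.8%) were called higher than in wild type MEP, and 1, Sema7a, lower. To be called, a promoter had to pass an adjusted p of 0.05 and differ by 10 percentage points or more. Over all 10532 promoters 11.2% were called higher and 0.608% lower. Ligands and receptors were both among them: 6 of 10 Eph receptors, 1 of 5 ephrins, 2 of 3 Slits, 2 of 4 Robo receptors, 5 of 11 semaphorins and 3 of 4 Unc5 receptors, with 0 of 7 plexins, 0 of 4 netrins and the 1 neuropilin not called. The median difference was 6.80 points over the members and 0.247 over all promoters. In 32 of the 49 all 3 double mutant libraries lay above both wild type MEP libraries, which held for 30.0% of all promoters. The mean over the members was 18.6%, 20.7% and 18.5% in the double mutant libraries and 9.14% and 9.91% in wild type MEP. With limma 16 members were called (9.27% of all promoters) and with edgeR 15 (8.17%).

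Against knockout MEP 20 members were called higher (40.8%, background 13.5%) and 0 lower (background 0.788%). Against Idh2 mutant MEP 19 were called higher (background 11.1%) and 1, Sema4b, lower (background 1.51%). The median differences were 7.42 and 6.83 points, against 0.127 and 0.154 over all promoters. Called higher in all 3 comparisons, which share the double mutant libraries, were 18 genes: Efna5, Epha2, Epha5, Epha6, Ephb1, Ephb2, Ephb3, Robo1, Robo2, Sema3a, Sema5a, Sema5b, Sema6a, Sema6d, Slit1, Slit2, Unc5c and Unc5d. Unc5a was called against wild type alone, Plxna1 and Sema4g against knockout alone and Slit3 against Idh2 mutant alone. The share of all promoters called higher in all 3 comparisons was not counted, so the 18 genes are a list without a background. The calls were made on the same 3 libraries, and whether the differences themselves differ between comparisons was not tested.

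**Figure D2:**
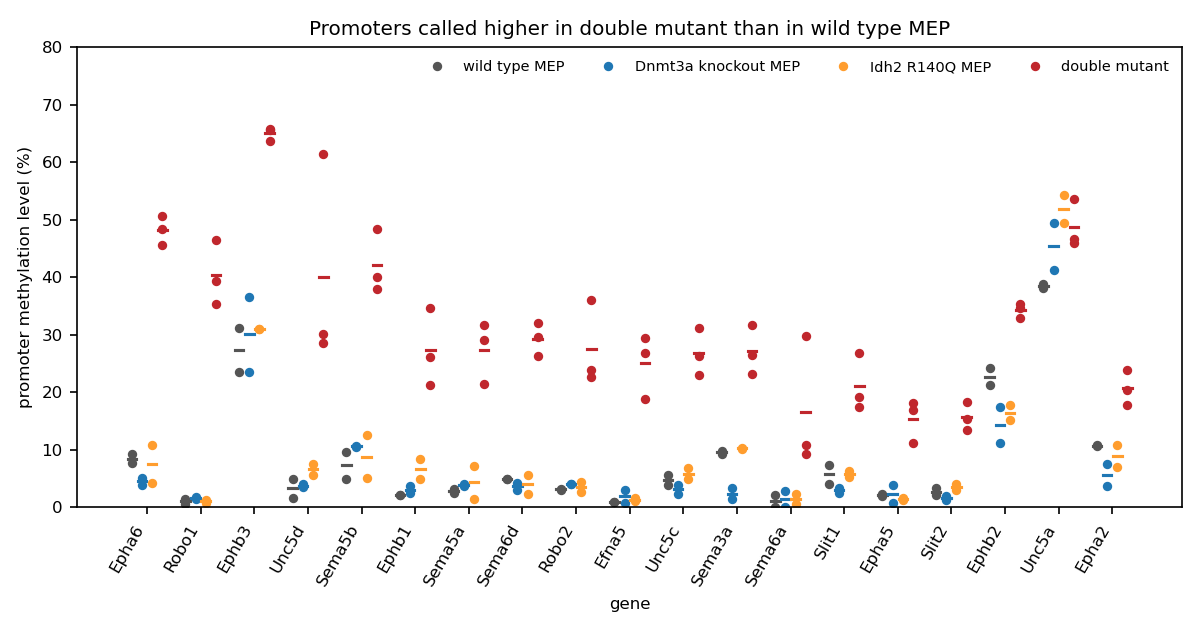
Promoter methylation level (%, y axis) of the 19 genes called higher in the double mutant than in wild type MEP, ordered by the difference of means (x axis); points are libraries and short lines group means. The double mutant points lie above all MEP points of the other genotypes in every gene but Unc5a, where both Idh2 mutant points lie above 2 of the 3 double mutant points.

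Among the ephrins, Efna5, a lipid-anchored ligand that repels axons of the visual system, was the member that rose. Its promoter (chr17:62953533-63230666 for the gene, minus strand, 19 CpGs) had 26.8%, 29.4% and 18.9% in the double mutant libraries and 0.879% and 0.922% in wild type MEP. Knockout MEP had 3.03% and 0.793%, Idh2 mutant MEP 1.14% and 1.56%, and the 6 GMP libraries 1.16% to 2.90%. All 3 double mutant libraries were far above the other 12, with a difference of 24.1 points from wild type MEP (25.04% ± 5.47 with n = 3 against 0.901% ± 0.0301 with n = 2, SD, adjusted p = 1.68e-06). Efnb2, a transmembrane ligand that marks arteries and shares CpGs with the neighbouring gene 4921522P10Rik, had 3.66% ± 0.367 against 0.853% ± 0.247 over 35 CpGs, a difference of 2.81 points that passed on its adjusted p (0.00206) but not on size. Efna1 (1.42 points), Efna3 (2.31) and Efna4 (-0.399) were not called.

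Eph receptors are tyrosine kinases, and Epha6 showed the largest difference among the 49 tested promoters. Its promoter (gene at chr16:59653309-60605357, minus strand, 10 CpGs) had 45.5%, 50.6% and 48.4% in the double mutant and 7.72% and 9.24% in wild type MEP. Levels were 3.89% and 5.15% in knockout MEP, 10.9% and 4.23% in Idh2 mutant MEP and 4.27% to 15.3% in GMP. The double mutant libraries did not overlap any other library, and the difference from wild type MEP was 39.7 points (adjusted p = 5.79e-06). Ephb3, a receptor of ephrin-B ligands at work in the gut lining, started higher: 23.4% and 31.1% in wild type MEP, 23.5% and 36.6% in knockout MEP and 30.9% and 31.02% in Idh2 mutant MEP. In the double mutant it had 65.5%, 65.7% and 63.7%, a close set of values (37.7 points above wild type MEP, adjusted p = 4.09e-05). All 3 values were above every other library, with GMP at 25.5% to 43.4%.

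Ephb1 (gene at chr9:101824458-102257023, 11 CpGs) had 34.6%, 26.1% and 21.2% in the double mutant against 2.14% and 2.19% in wild type MEP, a difference of 25.2 points (adjusted p = 2.01e-05). Idh2 mutant libraries were the next highest, with 5.36% and 10.7% in GMP and 8.44% and 4.88% in MEP. Epha5 (gene at chr5:84486816-84846407), a receptor of ephrin-A ligands, had 18.1%, 16.98% and 11.1% against 2.39% and 2.02% (13.2 points, adjusted p = 0.000907). The weakest calls were Epha2 and Ephb2. Epha2, an epithelial member, had 17.8%, 23.9% and 20.4% against 10.6% and 10.8% (adjusted p = 0.0407), and its call from wild type MEP was lost without double mutant replicate 2 (adjusted p = 0.147) or replicate 3 (0.0797) and without either wild type MEP replicate (0.170 and 0.168). Ephb2 had 34.7%, 32.9% and 35.3% against 21.2% and 24.2%, 11.2% and 17.5% in knockout MEP and 17.8% and 15.1% in Idh2 mutant MEP. Without wild type MEP replicate 1 its call was lost (adjusted p = 0.114), and within 500 bp of a start site its difference from wild type MEP was 0.739 points.

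The other Eph receptors did not reach a call. Epha7, with 27 CpGs and 880 to 1772 reads per library, stayed at 0.195%, 0.339% and 0.424% in the double mutant and 0.539% and 0.184% in wild type MEP. Ephb6, a family member without kinase activity, had 0.279% and 0.146%. Epha4 had 8.09%, 8.70% and 7.30% against 0.785% and 1.68%, a difference of 6.80 points whose adjusted p was 0.000344 and which missed on size. Epha8 had 9.63%, 12.9% and 13.8% against 8.67% and 8.25% (adjusted p = 0.28).

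Slits are secreted proteins that repel axons through Robo receptors. Slit1 (gene at chr19:41674747-41818155, 24 CpGs) had 19.1%, 26.8% and 17.5% in the double mutant against 4.09% and 7.39% in wild type MEP, 3.40% and 2.57% in knockout MEP and 5.35% and 6.32% in Idh2 mutant MEP. Slit2 (gene at chr5:48374394-48697521, 18 CpGs) had 13.5%, 15.4% and 18.3% against 3.33% and 2.08%. In both genes every double mutant library was above all 12 others, and the differences from wild type MEP were 15.4 points (adjusted p = 0.000451) and 13.03 points (adjusted p = 2.31e-05). Slit3 had 9.51%, 14.4% and 8.64% against 1.71% and 3.67%. Its difference from wild type MEP was 8.16 points (adjusted p = 0.00144, short of the size rule), and from Idh2 mutant MEP 10.1 points (adjusted p = 0.000318), which fell under 10 points without double mutant replicate 2 (8.37) or Idh2 mutant MEP replicate 2 (9.69).

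Robo1 and Robo2, the main Slit receptors of the nervous system, rose, and Robo3 and Robo4 were not called. The Robo1 promoter (gene at chr16:72663394-73046340, plus strand, 10 CpGs) had 39.3%, 46.4% and 35.3% in the double mutant. All other MEP libraries were near 1%, with 0.611% and 1.42% in wild type, 1.74% and 1.49% in knockout and 0.833% and 1.30% in Idh2 mutant cells, and GMP libraries had 0.242% to 2.97%. The difference from wild type MEP was 39.3 points (40.3% ± 5.64, n = 3, against 1.02% ± 0.575, n = 2, SD, adjusted p = 6.85e-07). Robo2 (gene at chr16:73892551-74412070, minus strand, 7 CpGs) had 23.8%, 36.1% and 22.6% against 3.04% and 3.17%, a rise of 24.4 points (adjusted p = 4.21e-05) with double mutant replicate 2 the highest. Robo3 had 40.4%, 45.1% and 40.1% against 41.2% and 51.4%, with overlapping libraries, and Robo4 55.7%, 52.5% and 70.9% against 51.1% and 50.8% (adjusted p = 0.625).

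Netrins guide axons towards or away from their source depending on the receptor, and Unc5 proteins are their repulsive receptors. The 3 of 4 tested netrins with low promoters stayed low: Ntn1 had 1.92% in the double mutant against 0.785% in wild type MEP, Ntn4 2.03% against 0.739% and Ntng2 0.481% against 0.0983%. Ntn3 was lower, at 6.99%, 4.82% and 5.74% in the double mutant and 13.8% and 15.9% in wild type MEP, a difference of -8.99 points (adjusted p = 0.00116) that missed the size rule. Unc5c (gene at chr3:141128528-141497888, plus strand, 28 CpGs) had 26.3%, 22.9% and 31.1% against 3.82% and 5.61%, 2.26% and 3.96% in knockout and 4.90% and 6.80% in Idh2 mutant MEP, a rise of 22.1 points (adjusted p = 6.82e-06). Unc5d (8 CpGs) had 30.05%, 61.4% and 28.6% against 4.95% and 1.63%. Its replicate 2 stood well above the other double mutant libraries, and with the 2 compared groups fitted alone the adjusted p was 0.0541 in place of 0.00037. Unc5b, with 5 CpGs, had 0%, 0% and 0.481% and 0% and 0.588%. Unc5a was methylated in every library, with 53.7%, 45.96% and 46.6% against 38.8% and 38.1% (adjusted p = 0.0429), and that call was lost without any single one of the 5 libraries, at adjusted p = 0.0530 to 0.209.

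Semaphorins are the largest family here, with 11 of 20 genes tested. Sema5b, a transmembrane semaphorin with thrombospondin repeats, had 37.9%, 40% and 48.3% in the double mutant against 9.61% and 4.99% in wild type MEP (24 CpGs, gene at chr16:35541231-35664818). Knockout MEP had 10.6% and 10.6% and Idh2 mutant MEP 5.07% and 12.6%, all under the lowest double mutant value, and the rise was 34.8 points (adjusted p = 3.47e-05). Its relative Sema5a (gene at chr15:32174568-32626096, 10 CpGs) had 29.1%, 21.5% and 31.7% against 2.47% and 3.21% (24.6 points, adjusted p = 9.69e-05). Sema6d (gene at chr2:123915705-124493506, 28 CpGs) had 26.3%, 32.04% and 29.5% against 4.83% and 4.94%, 3.03% and 4.31% and 2.27% and 5.67% in wild type, knockout and Idh2 mutant MEP. That rise of 24.4 points had an adjusted p of 7.39e-07, and the GMP libraries had 3.96% to 6.27%, all under the double mutant. Sema6a had 9.29%, 29.8% and 10.8%, with replicate 2 well above the others, against 2.18% and 0% (adjusted p = 0.0167). Without that replicate the difference was 8.97 points, and without wild type MEP replicate 1 or 2 the adjusted p was 0.0641 or 0.124.

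Sema3a, a secreted repellent that binds neuropilin 1 with a plexin, rested on 3 CpGs: 26.5%, 23.1% and 31.7% in the double mutant, 9.81% and 9.35% in wild type MEP, 1.44% and 3.33% in knockout MEP and 10.4% and 10.2% in Idh2 mutant MEP. Its rise from wild type MEP (17.6 points, adjusted p = 0.00375) was not called by limma (adjusted p = 0.0850) or edgeR (0.135). Sema4g had 43.2%, 42.7% and 37.3% in the double mutant, 31.6% and 35.3% in wild type MEP and 14.3% and 28.8% in knockout MEP. Its call from knockout MEP (adjusted p = 0.00555) was lost without knockout MEP replicate 1 (0.264). Sema7a, a lipid-anchored semaphorin found on blood cells, was the member that fell. It had 1.34%, 1.29% and 1.60% in the double mutant against 8.66% and 16.2% in wild type MEP and 6.06% to 18.5% in GMP, and no double mutant library overlapped any of the other 12. The promoter fell by 11.00 points from wild type MEP (adjusted p = 0.000933), by 7.70 from knockout MEP and by 8.18 from Idh2 mutant MEP, and without wild type MEP replicate 2 the first value fell by 7.25, under the size rule. Over CpGs of at least 20 reads Sema7a was also called lower than in knockout MEP, where it fell by 18.6 points, and than in Idh2 mutant MEP, where it fell by 21.1. Sema4b had 5.67%, 7.41% and 4.17% in the double mutant, 25.99% and 40.1% in Idh2 mutant MEP and 16.6% and 7.60% in wild type MEP, and it fell by 27.3 points from Idh2 mutant MEP (adjusted p = 0.0062). That call was lost without Idh2 mutant MEP replicate 2 (adjusted p = 0.0639). Sema4c (1.39% against 0.0446%), Sema4d (18.3% against 15.6%), the lymphocyte semaphorin, and Sema6b (37.2% against 37.4%) were not called in the double mutant.

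Plexins are the receptors of semaphorins, and none of the 7 was called from wild type MEP. Plxna1 came closest, at 6.77%, 9.09% and 15.4% in the double mutant against 0.897% and 0.635% in wild type MEP and 0.165% and 0% in knockout MEP. Its differences were 9.64 points from wild type MEP (adjusted p = 0.00121, short of the size rule) and 10.3 from knockout MEP (adjusted p = 0.000249), and the latter fell under the size rule without double mutant replicate 3 (7.85). Plxna2 had 5.90%, 11.4% and 6.88% against 0.693% and 1.19%, and Plxnd1, a vascular plexin, 2.64%, 3.38% and 1.98% against 0% and 0.239%; both passed on adjusted p (0.00326 and 0.0063) but not on size. Plxna4 (-0.0568 points), Plxnb1 (3.42), Plxnb2 (-0.222) and Plxnc1 (-0.363), the receptor of Sema7a, did not pass. Nrp2, the only neuropilin with at least 3 CpGs, was at 0% in all 3 double mutant libraries and at 0% and 0.451% in wild type MEP, where a count of 0 allows up to 1.68% to 2.7%.

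Dnmt3a loss alone gave no call in the 49 promoters over GMP and MEP together, at a background of 1.13%. Limma and edgeR also called 0 (backgrounds 0.00949% and 0.0%). In the quasi-binomial model 12 of the 49 members had an unadjusted p under 0.05, against 1702 of all 10532 promoters. Ntn3, Ephb2 and Sema6b lay lowest among the members whose 4 knockout and 4 wild type libraries did not overlap. Of the others without overlap Epha2 was lower (-4.86 points), and Robo2 (1.63), Efnb2 (0.955) and Sema4c (0.577) were higher. The share of all promoters without overlap was not counted for this comparison, so these members are a list without a background. Ntn3 had 4.13% and 3.89% in knockout GMP and 2.97% and 6.34% in knockout MEP against 12.6% and 13.4% and 13.8% and 15.9% in wild type, a difference of -9.57 points whose adjusted p was 0.00347 and which missed on size. Ephb2 differed by -8.81 points (adjusted p = 0.026), and this became 0.376 within 500 bp of a start site. Sema6b differed by -16.1 points (adjusted p = 0.107). Without knockout MEP replicate 2 all 3 were called lower, with differences of -10.4 points in Ntn3, -10.4 in Ephb2 and -19.7 in Sema6b, while 2.62% of all promoters were called in either direction, and without wild type MEP replicate 1 Ntn3 was (-10.1).

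Idh2 R140Q alone gave 2 calls, Unc5a higher (background 1.21%) and Sema6b lower (background 0.655%). Neither was called by limma (background 0.114%) or edgeR (0.0%). Unc5a had 60.1% and 50% in Idh2 mutant GMP and 49.4% and 54.2% in Idh2 mutant MEP against 37.8% and 41.2% and 38.8% and 38.1% in wild type. The 4 Idh2 mutant libraries lay above the 4 wild type ones, by 14.4 points (adjusted p = 0.0133), and the call was lost without wild type GMP replicate 1 (0.0637), Idh2 mutant GMP replicate 1 (0.0844) or Idh2 mutant MEP replicate 2 (0.0556). Sema6b, over 4 CpGs, had 22.7% and 32.7% in Idh2 mutant GMP and 27.3% and 15.4% in Idh2 mutant MEP against 49.5% and 43.3% and 36% and 38.8% in wild type. It fell by 17.3 points (adjusted p = 0.0489), a call lost on leaving out any of 7 of the 8 libraries (adjusted p = 0.0534 to 0.204). Ephb2 had a difference of -7.56 points with an adjusted p of 0.0388, and missed on size. Sema4b had the highest difference of the members (14.6 points, adjusted p = 0.168), with overlapping libraries, and was not called. In 5 members the lowest Idh2 mutant library exceeded the highest wild type one (7.28% of all promoters). Beside Unc5a these were Ephb1 (4.66 points, adjusted p = 0.0989), Unc5d (3.02, 0.509), Efnb2 (0.996, 0.0952) and Sema4c (0.596, 0.103), and none of these 4 was called.

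**Figure D3:**
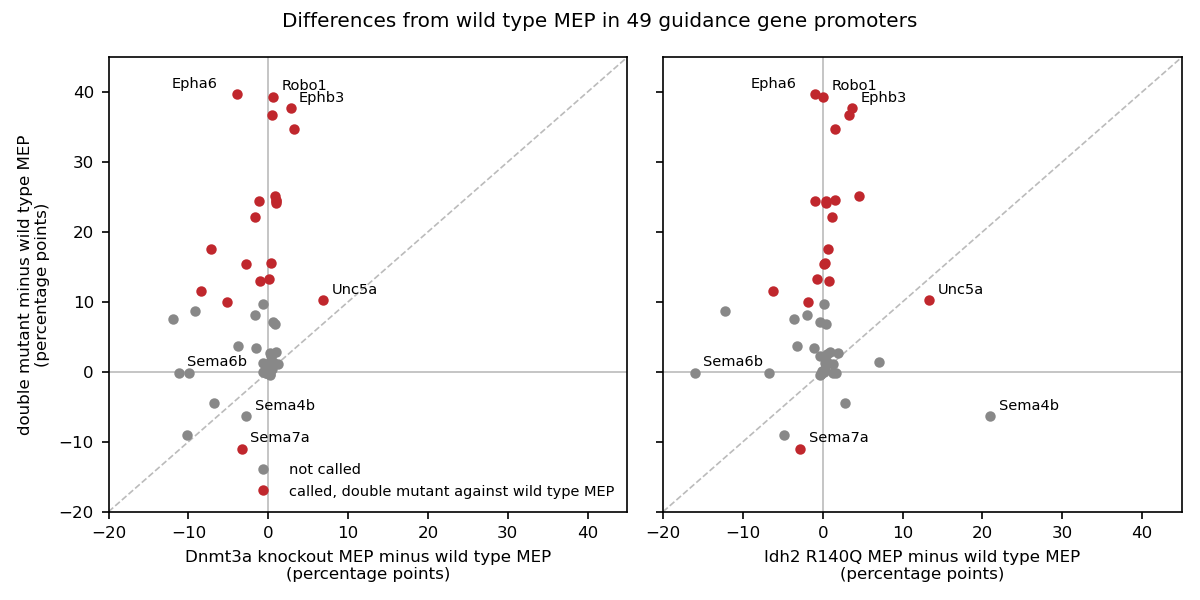
Difference of group means from wild type MEP (percentage points) in the double mutant (y axis) against that in knockout MEP (left, x axis) and in Idh2 mutant MEP (right, x axis) for the 49 promoters; red points were called in the double mutant, the dashed line marks equal differences. All axes share the wild type MEP libraries. Most called rises lie near 0 on the x axes, with Unc5a the farthest to the right among the called rises and Epha6 at 39.7 on the y axis. Sema4b, not called here, lies farther right than Unc5a in the right panel.

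The difference between double mutant and Idh2 mutant MEP was compared with that between knockout and wild type MEP, as an interaction term. It was added after the data had been seen. Double mutant cells carried the Mx1-cre and Idh2 mutant cells did not, while knockout and wild type cells both carried it. Dnmt3a loss, the Cre and the sex chromosome content of wild type libraries cannot be told apart in this term. The term was called in 15 of the 49 members, all with a larger difference in the double mutant, at a background of 8.35% for that direction. By role these were 5 of 10 Eph receptors, 3 of 3 Slits, 5 of 11 semaphorins, 1 of 4 Robo and 1 of 4 Unc5 receptors. Limma called 8 (background 4.52%) and edgeR 3 (background 1.77%). Over CpGs of at least 20 reads 6 members were called, 5 with a larger and 1 with a smaller difference in the double mutant (background 6.96% in either direction). Efna5 (22.7 points, adjusted p = 0.054) and Robo2 (22.96 points, 0.0597) were among the rises that did not pass it.

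Within the 19 promoters, CpGs were higher on both sides of the start site. Of their 300 CpGs, 180 had all 3 double mutant libraries above both wild type MEP libraries. The promoters had been called on these same libraries, so a high share follows from their choice. In the 500 bp before the start site the mean CpG level was 5.83% in wild type MEP and 21.4% in the double mutant, and in the 500 bp after it 4.63% and 28.1%. Knockout MEP had 6.31% and 4.72% in these places, and Idh2 mutant MEP 6.32% and 7.65%. CpGs in 1 promoter share their cells and often their reads, so these counts are a description. Genes differed in extent: all 10 CpGs of Epha6 and 9 of 10 in Robo1 lay above wild type MEP in this sense, but 13 of 28 in Sema6d and 5 of 25 in Ephb2. In Slit2 the mean difference was 18.1 points over 11 CpGs before the start site and 2.14 over 7 after it, while in Sema6d it was 0.700 over 5 before and 28.2 over 23 after. The fall of Sema7a sat before its start site, at -29.0 points over 5 CpGs against 0.05 over 11 after it.

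**Figure D4:**
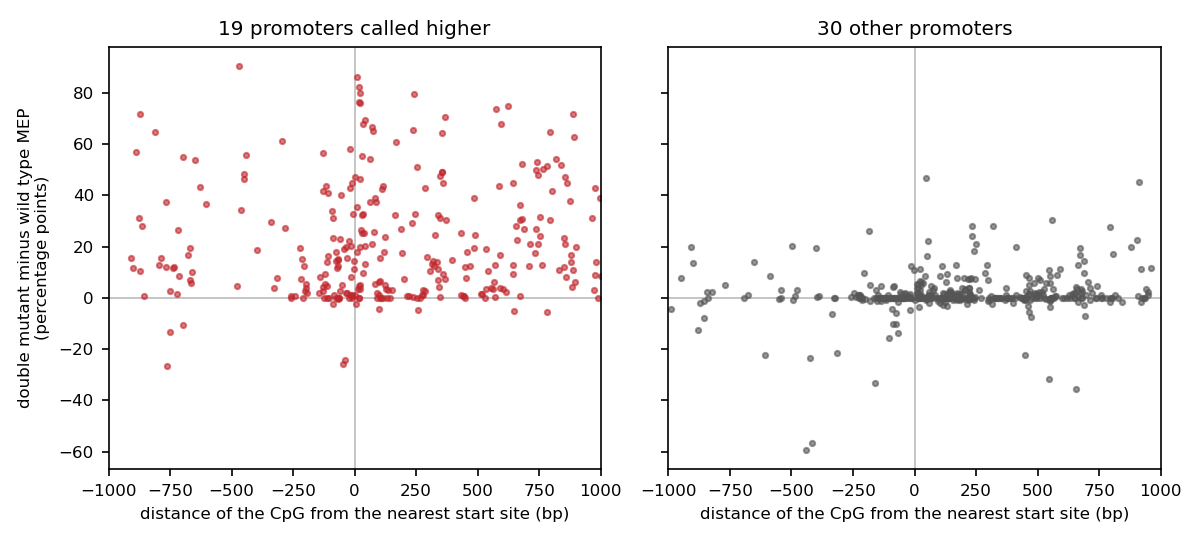
Difference between double mutant and wild type MEP (percentage points, y axis) of single CpGs by their distance from the nearest start site in bp (x axis, negative is before the start), for the 19 promoters called higher (left) and the other 30 tested members (right). Higher levels occur at all distances on the left, and most points on the right lie near 0.

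Called and other members differed little in base composition. The median ratio of observed to expected CpGs around the best covered start site was 0.622 in the 19 and 0.660 in the other 30, and 0.646 over all tested promoters. The median GC content was 59.2% and 61.4%, against 55.6% over all. Guidance promoters held more measured CpGs than others, with a median of 13 against 10. Of members with 20 or more CpGs, 7 of 14 rose in the double mutant (all promoters 10.4%), of those with 10 to 19 CpGs 8 of 20 (10.4%) and of those with 3 to 9 CpGs 4 of 15 (12%). By starting level, 10 of 29 members under 5% in wild type rose (all promoters 8.49%), 6 of 12 between 5% and 20% (26.4%) and 3 of 8 between 20% and 80% (13.6%).

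Among the 15 libraries, the member promoters most like Robo1 were Efna5 (Pearson r = 0.993), Sema6d (0.990) and Robo2 (0.984). Those most like Epha6 were Robo1 (0.981), Sema6d (0.981) and Slit2 (0.973). The values describe these 15 libraries, which fall into the double mutant and the rest, and no test was made. Among the 3 double mutant libraries replicate 2 was the highest in 10 of the 19 promoters and the lowest in 5, replicate 3 the highest in 6 and the lowest in 8, and replicate 1 the highest in 3 and the lowest in 6. Over all promoters replicate 2 also had the highest mean level, at 12.8% against 11.8% and 11.9%.

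Genes with 1 or 2 CpGs stayed out of the main test and entered an alternative that kept promoters with at least 1 CpG. Sema3c, a secreted semaphorin with 2 CpGs, had 72.9%, 86.96% and 69.9% in the double mutant against 15.95% and 9.87% in wild type MEP, 6.21% and 25.7% in knockout MEP and 8.60% and 21.5% in Idh2 mutant MEP, and rose by 63.7 points (adjusted p = 0.000270). Sema3e, with 1 CpG and as few as 10 reads, had 41.7%, 21.1% and 68.8% against 2.56% and 0% (42.5 points, adjusted p = 0.00251). Nrp1, the neuropilin of class 3 semaphorins, was at 0% in all double mutant libraries on its 1 CpG (a count of 0 allows up to 3.16% to 3.66%). Epha10, Ntn5 and Sema6c were highly methylated in the double mutant and in wild type MEP alike, at 100%, 97.9% and 97.6% and 76.9% and 95.7% in Epha10, 100%, 92.3% and 100% and 92% and 100% in Ntn5 and 88.7%, 98.1% and 89.9% and 90.1% and 91.9% in Sema6c. Ephb4, the receptor of ephrin-B2 that marks veins, had 1.28%, 2.33% and 3.75% in the double mutant, 18.4% and 17.2% in Idh2 mutant MEP and 3.12% and 6.45% in wild type MEP on 2 CpGs, and fell by 15.4 points from Idh2 mutant MEP (adjusted p = 0.0327). Efnb3 (2.08%, 6.52% and 0% against 1.47% and 1.47% in wild type MEP) and Sema4f (0%, 7.55% and 4.26% against 0% and 0%) were not called. Sema4a had 91.2%, 98.4% and 100% against 88.9% and 97.5% on 1 CpG.

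Downstream and partner genes of the pathway were read from a list of 82 annotated genes, of which 66 had a tested promoter. In the double mutant 13 of them (background 11.2%) were called higher than wild type MEP and 2 lower (0.608%), with a median difference of 0.931 points against 0.247 over all promoters. Dpysl3 and Crmp1, collapsin response mediators that pass on semaphorin signals to the cytoskeleton, had 47.4% against 2.19% and 40.7% against 9.71% (adjusted p = 1.08e-07 and 3.67e-05), and their relative Dpysl4 had 49.7% against 14.2%. Rgmb, a ligand of the netrin receptor relative neogenin, had 45.5% against 2.25%, and Celsr3, a cadherin needed for major axon tracts, 48.8% against 4.55%. The kinases Pak7 (35.5 points), Pak6 (28.7) and Limk2 (10.001), the adhesion molecule Cntn2 (24.8), the exchange factors Farp1 (20.7) and Ngef (11.8), the membrane protein Slitrk5 (20.3) and the chemokine Cxcl12 (10.04) made up the rest. The 2 that fell were Mical2, an actin oxidase, by 21.2 points, and Ssh1, a cofilin phosphatase, by 18.3. Leaving out 1 library ended 5 of these 15 calls. Cxcl12 was lost without double mutant replicate 2 (9.29 points) or wild type MEP replicate 2 (9.90), and Limk2 without double mutant replicate 3 (9.31) or wild type MEP replicate 2 (9.23). Ngef was lost without double mutant replicate 1 (7.83 points) or 2 or either wild type MEP replicate, Slitrk5 without wild type MEP replicate 1 (adjusted p = 0.0907) and Ssh1 without wild type MEP replicate 2 (0.0685). Calls from wild type MEP that other fits did not make included Farp1 (limma adjusted p = 0.0665, edgeR 0.0762) and Limk2 (0.332 and 0.346). With edgeR they also included Cntn2 (0.0740) and Pak6 (0.0616). Against knockout MEP 13 were called higher (background 13.5%), among them Srgap1, a Slit-Robo effector (23.4 points), and Evl (15.4), with 1, Ssh1, lower (0.788%). Of these 14 calls Evl, Limk2, Pak6 and Pak7 were lost without knockout MEP replicate 1 (Limk2 at 6.52 points in place of 10.4), Limk2 also without double mutant replicate 3, Pak6 also without knockout MEP replicate 2 or double mutant replicate 2, and Ssh1 without knockout MEP replicate 2 (-10.6 points in place of -19.95). Against Idh2 mutant MEP 12 were called higher (background 11.1%) and 2 lower (1.51%), Mical2 and the kinase Src (-20.4 points). The Src call was lost without Idh2 mutant MEP replicate 2 (-11.8 points, adjusted p = 0.447) or double mutant replicate 1 or 2. Evl was lost without any 1 of the 5 libraries, Srgap1 without any but double mutant replicate 1, Ngef without any but double mutant replicate 3, and Farp1 without double mutant replicate 2 or 3 or Idh2 mutant MEP replicate 1. Knockout alone called 0 of the 66 (background 1.13%). Idh2 R140Q alone called Pak6 higher (background 1.21%), by 17.9 points (adjusted p = 0.0164). That call was lost with limma (adjusted p = 0.181), with edgeR (0.375), with the compared groups alone (0.0508) and with GMP and MEP summed (0.0645). It was also lost without either wild type GMP replicate, wild type MEP replicate 2 or Idh2 mutant MEP replicate 2 (adjusted p = 0.0556 to 0.0884).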

How the data were processed

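Promoter methylation was measured in 15 reduced representation bisulfite libraries of 7 groups. Alignment used BSMAP 2.74 and build mm9, per the submitters' processing notes. The authors' deposited files list counts of methylated and of all reads per cytosine. The deposited methylation fraction, methylated over all reads, served to check the counts. Trimming, removal of duplicates and conversion were not given in the sources used here. Without molecular identifiers, PCR copies cannot be told from separate molecules, so counting limits cover counting error only.

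Both strands of a CpG were summed, and autosomal CpGs with 10 or more reads in every library and within 1 kb of a GENCODE vM1 start site were pooled per gene. All 241527 CpGs kept fell on CG in the NCBIM37 genome. A quasi-binomial logistic model with 1 mean per group (8 residual degrees of freedom, dispersion squeezed towards a common value and not under 1, 0.25 reads added to methylated and unmethylated counts) was fitted to promoters with at least 3 CpGs. Contrasts were tested with F tests, with Benjamini-Hochberg adjustment over 10532 promoters. Alternatives included limma 3.58.1 on log ratios and edgeR 4.0.16 on counts. These 3 fits were tested on simulated data for the double mutant against wild type MEP alone. Errors are SDs over libraries, of 2 or 3.

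The members and lists were chosen with earlier results of these data known. Genes were named if called in any comparison, if among the 5 largest rises or falls of at least 2 points without overlap of libraries, or if at 10% or more in wild type; the remaining members are described for completeness. Software was R 4.3.3 and Python 3.11.15 with scipy 1.17.1, numpy 2.4.6, matplotlib 3.10.9 and pandas 2.3.3.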

Additional observations from a re-analysis of the deposited data

Results flagged for a closer look

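In 15 member promoters the difference between double mutant and Idh2 mutant MEP was called as unlike that between knockout and wild type MEP. All 15 were larger in the double mutant, a direction called in 8.35% of all promoters. This was tested with an interaction term of the quasi-binomial model on the logit scale, adjusted over 10532 promoters and added after the data had been seen. The values are percentage points of double mutant minus Idh2 mutant MEP, less knockout minus wild type MEP. Among Eph receptors the term was 44.6 in Epha6, 31.2 in Ephb3, 26.2 in Ephb2, 17.0 in Epha2 and 10.6 in Epha8. Among semaphorins it was 29.97 in Sema5b, 27.1 in Sema6b, 26.5 in Sema6d, 24.1 in Sema3a and 23.2 in Sema4g. The Slits had 18.0 in Slit1, 13.3 in Slit2 and 11.8 in Slit3, and the receptors Robo1 and Unc5c 38.7 and 22.5. Sema6b, Sema4g, Epha8 and Slit3 were not called in the double mutant against wild type MEP. Knockout MEP lay below wild type MEP in Sema6b (18.97% and 33.3% against 36% and 38.8%), Sema4g (14.3% and 28.8% against 31.6% and 35.3%) and Epha8 (4.56% and 4.79% against 8.67% and 8.25%). Epha6 kept its call in all 15 alternatives run, while Sema5b lost it in 13 of 14. With the 25-point size rule left aside, Sema6b lost it in 10 of 14, Sema4g in 9 of 16, Epha8 in 7 of 16 and Epha2 in 6 of 16. Ephb2, Ephb3, Robo1, Sema3a, Sema6d, Slit1, Slit2, Slit3 and Unc5c lost it in 1 to 5 alternatives each. Within 500 bp of a start site the term of Ephb2 was 0.222 points. The double mutant cells are malignant and the others are not labelled so, and the part of this in the differences cannot be told apart from the genotype. Nor can the part of the Cre, which Idh2 mutant cells alone lacked, or of the sex chromosome content of wild type libraries.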

How the results depend on the processing

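Of the 19 rises from wild type MEP, those of Epha2, Ephb2, Sema3a, Sema6a, Unc5a and Unc5d were lost under at least 1 alternative other than the size rule, and the other 13 under none of the 10 to 12 that could be run for each. The 18 genes called in all 3 comparisons were counted likewise. Calls from Idh2 mutant MEP were lost in Sema6a (8 of 11 alternatives), Epha2 (6 of 12), Ephb2 (3 of 12), Sema3a (3 of 11) and Unc5d (1 of 11). Calls from knockout MEP were lost in Sema6a (7 of 11), Epha2 (1 of 12) and Ephb2 (1 of 12). With CpGs of at least 20 reads only 35 members were tested, and 11, 13 and 13 were called in the double mutant against wild type, knockout and Idh2 mutant MEP (10.7%, 12.4% and 11.2% of all promoters), with medians of 3.70, 3.35 and 3.21 points. At a size of 25 points 6, 6 and 7 were called (4.78%, 5.55% and 4.86%). Within 500 bp of a start site the medians from wild type and Idh2 mutant MEP were 4.02 and 2.96, and with equal weight for each CpG the 3 medians were 5.38, 4.79 and 3.62. The cause of these shifts was not tested. Leaving out libraries in turn gave 16 to 20, 18 to 22 and 15 to 21 calls (10.3% to 11.6%, 10.5% to 15.9% and 9.45% to 12.1% of all promoters), with medians of 5.22 to 7.24, 6.48 to 10.05 and 6.44 to 8.16. For Idh2 R140Q alone, 0 of the 2 calls were left at 25 points (0.313% of all promoters), with limma (0.114%) and with edgeR (0.0%). At 20 reads (1.28%) and within 500 bp (1.18%) Unc5a was not called, and Sema6b was not tested. There was 1 with at least 1 CpG per promoter (1.69% of all promoters), with the compared groups alone (1.04%), with GMP and MEP libraries summed (1.07%) and with the replicate block (1.98%). With Unc5 genes left out 1 remained (1.86%), which follows from removing Unc5a itself. On leaving out libraries the median difference was 0.422 to 0.683 points. Knockout alone gave 0 to 3 on leaving out libraries (0.161% to 2.62%), and the difference of Ephb2 turned to 0.376 within 500 bp. The interaction was called in 6 members at 20 reads (6.96% of all promoters), 9 within 500 bp (7.19%), 8 with limma (4.52%), 3 with edgeR (1.77%), 7 at 25 points (5.1%) and 7 to 16 on leaving out libraries (5.04% to 11.3%; 7 without wild type MEP replicate 2, 9 without knockout MEP replicate 1).

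With the replicate number as a block, 19, 20 and 20 members were called in the double mutant comparisons (11.5%, 13.5% and 11.9% of all promoters), 16 in the interaction (9.71%) and 0 in knockout alone and in wild type MEP against GMP. Deviations of GMP and MEP libraries of the same number had correlations of 0.269 for Idh2 mutant, 0.0800 for wild type and -0.0260 for knockout libraries. Wild type against knockout or Idh2 mutant libraries of the same cell type and number gave -0.022 to 0.021. Double mutant against MEP libraries of the same number gave -0.013 to 0.096. Whether Idh2 mutant GMP and MEP libraries of the same number share an origin was not tested, and the main fit took them as independent. With 2 libraries in most groups, small differences could not be told from the spread, and leaving out 1 of 2 assumes that the lone library varies like the other groups.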
